A study of Homo sapiens with 2 samples.

Results

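The zinc finger genes of chromosome 19 were examined for open chromatin in HepG2, an established line of human liver cancer cells, with and without depletion of the nuclear receptor NR2E3. The peaks were those on chromosome 19 whose nearest gene is protein-coding and carries a ZNF symbol with a number. They numbered 181 of the 56159 peaks in the 3 deposited lists, and 115 of them were promoter peaks. FAIRE (formaldehyde-assisted isolation of regulatory elements) enriches DNA that is not crosslinked to protein, so a peak marks accessible chromatin. Cells carried lentiviral small hairpin RNA against NR2E3 (depleted) or a scrambled hairpin (control), with 1 library in each group. Peak lists do not measure NR2E3 RNA or protein, so the depletion was not checked here. No difference between the lists therefore has a replicate check, no test between the conditions was made, and every interval is a 95% interval of counting error only. By its name, the common list (73 of 14368 peaks) holds sites called in both libraries. The control-specific list (20 of 16236) and the depleted-specific list (88 of 25555) are likewise taken to hold sites called in 1 of them. The rule that separates the lists is not given in the sources used here.

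C2H2 zinc finger proteins read DNA through arrays of short zinc-binding units, and most of those encoded on human chromosome 19 also carry a KRAB (Krüppel-associated box) domain. KRAB binds the corepressor TRIM28, also called KAP1, which brings in silencing enzymes, and many of these proteins repress transposable elements. The genes arose by repeated tandem duplication, so they lie in clusters of related neighbours on the short arm (19p) and the long arm (19q), and their promoters can be related in sequence as well as their coding parts.

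The promoter peaks carried 4 recurrent 8-letter words, and which of them occurred depended on the arm. The words were TCCAATCA, AGTGACAG, AATGTAGT and CTGGGAAA, called words 1 to 4 here. Each was counted on either strand. They were picked from these same peaks as the words whose share exceeded that in other promoter peaks by the most, keeping 1 word of each overlapping family, so their shares are a description. Word 1 contains the CCAAT box, the site known to bind NFY. Some 19p promoters held, on the gene's strand, word 2 in reverse (CTGTCACT) followed by word 1, in part of them with a GC box (GGGCGG, the core of Sp1 sites) between. The following 3 promoters show word 2 in reverse followed by word 1 in a common, a control-specific and a depleted-specific peak. They are printed 5′ to 3′ on the gene's strand (hg38), without annotated exon bases, and capitals mark the 4 words and GGGCGG.
ZNF563 (common, chr19:12333734-12334033, minus strand): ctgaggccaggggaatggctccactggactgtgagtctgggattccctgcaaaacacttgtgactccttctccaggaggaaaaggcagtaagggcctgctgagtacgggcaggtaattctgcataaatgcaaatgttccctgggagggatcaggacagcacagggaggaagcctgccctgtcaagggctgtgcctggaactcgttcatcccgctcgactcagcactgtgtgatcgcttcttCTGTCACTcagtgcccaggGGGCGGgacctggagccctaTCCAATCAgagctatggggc
ZNF429 (control-specific, chr19:21505430-21505601, plus strand): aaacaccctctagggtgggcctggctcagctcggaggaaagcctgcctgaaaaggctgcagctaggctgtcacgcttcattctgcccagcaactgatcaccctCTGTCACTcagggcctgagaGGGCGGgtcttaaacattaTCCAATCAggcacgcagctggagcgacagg
ZNF675 (depleted-specific, chr19:23687221-23687501, minus strand): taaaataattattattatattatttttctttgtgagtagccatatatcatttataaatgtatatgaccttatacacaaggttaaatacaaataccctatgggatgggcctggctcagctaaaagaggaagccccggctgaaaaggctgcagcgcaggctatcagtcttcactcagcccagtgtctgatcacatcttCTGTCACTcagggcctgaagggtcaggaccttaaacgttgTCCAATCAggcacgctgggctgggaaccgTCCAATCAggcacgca
The GC box between the words is present in ZNF563 and ZNF429 and absent in ZNF675, whose promoter repeats word 1 instead. Over the RefSeq promoter windows of 218 chromosome 19 ZNF genes (GRCh38.p14, 250 bases before to 50 after the start), 37 held word 2 in reverse followed by word 1. The starts of both words lay a median of 40 bp apart (37 to 108), and 21 of the 37 windows had a GC box between them. Word 1 stood in the orientation shown in 52 of the 53 windows with it, and word 2 in reverse in 41 of 42.

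The 19q promoters shown for the same 3 lists carried words 3 and 4 instead. In ZNF225 and ZNF112 both words run into each other, sharing 2 letters, as CTGGGAAATGTAGT. In ZNF551 word 3 stands alone and in reverse.
ZNF225 (common, chr19:44113184-44113398, plus strand): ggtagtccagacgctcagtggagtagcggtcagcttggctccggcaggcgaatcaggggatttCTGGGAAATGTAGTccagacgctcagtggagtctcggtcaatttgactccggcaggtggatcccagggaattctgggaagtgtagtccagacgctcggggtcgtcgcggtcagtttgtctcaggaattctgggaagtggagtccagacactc
ZNF551 (control-specific, chr19:57681780-57681968, plus strand): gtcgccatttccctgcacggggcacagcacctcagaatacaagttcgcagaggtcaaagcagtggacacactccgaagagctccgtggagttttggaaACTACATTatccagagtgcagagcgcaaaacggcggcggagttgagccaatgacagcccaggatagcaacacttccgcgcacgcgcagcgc
ZNF112 (depleted-specific, chr19:44356683-44356819, minus strand): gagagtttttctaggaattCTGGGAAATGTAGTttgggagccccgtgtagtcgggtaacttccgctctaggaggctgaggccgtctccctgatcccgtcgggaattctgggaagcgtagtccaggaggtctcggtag
Only exact matches are in capitals. The joined run was present in 11 of 73 promoter peaks of 19q (15.1%), in none of 42 of 19p, and in 31 of 6277 promoter peaks of other genes (0.494%).

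Across the 115 ZNF promoter peaks, word 1 was found in 27.8%, word 2 in 21.7%, word 3 in 20.9% and word 4 in 20.0%. In the 6277 promoter peaks of other protein-coding genes the shares were 1.86%, 1.58%, 1.43% and 3.47%. At least 1 of the words was present in 60% of ZNF promoter peaks and 7.52% of the others. By list the share was 61.4% in common, 66.7% in control-specific and 56.5% in depleted-specific peaks, with intervals of 47.6 to 74.0%, 34.9 to 90.1% and 41.1 to 71.1%, so no difference between the lists was detectable. The words lay close to the gene starts, at median positions of -59, -100.5, -93 and -62 bp relative to the start.

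The split by arm was near complete, although the arm had no part in picking the words. Of the 42 promoter peaks of 19p, 76.2% held word 1 and 54.8% word 2, and none held word 3 or word 4. Of the 73 promoter peaks of 19q, none held word 1, 2.74% held word 2, 32.9% word 3 and 31.5% word 4. The promoter windows, which include genes without a peak, showed the same division. Of 74 windows of 19p, 71.6% held word 1, 52.7% word 2 and none words 3 or 4, and of 144 windows of 19q the shares were 0%, 2.08%, 23.6% and 21.5%. In ZNF genes of other chromosomes (217 windows) the shares were 8.29%, 7.37%, 3.69% and 9.68%, and in all other protein-coding genes (15127 windows) 1.5%, 1.69%, 0.925% and 3.29%.

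Within an arm the words belonged to particular clusters. In the 19p cluster from ZNF101 to ZNF254 all 29 windows held word 1 and 26 held word 2. In the cluster from ZNF653 to ZNF490 the numbers were 20 and 13 of 25. In contrast, none of the 14 windows of the remaining large 19p cluster, from ZNF557 to ZNF846, held any of the 4 words. On 19q, words 3 and 4 were found in 7 and 9 of 25 windows from ZNF146 to ZNF573, in 6 and 8 of 20 from ZNF575 to ZNF296, and in 18 and 8 of 54 from ZNF628 to ZNF446. The 19q cluster from ZNF175 to ZNF331 held each of them in only 1 of 33 windows.

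**Figure D1:**
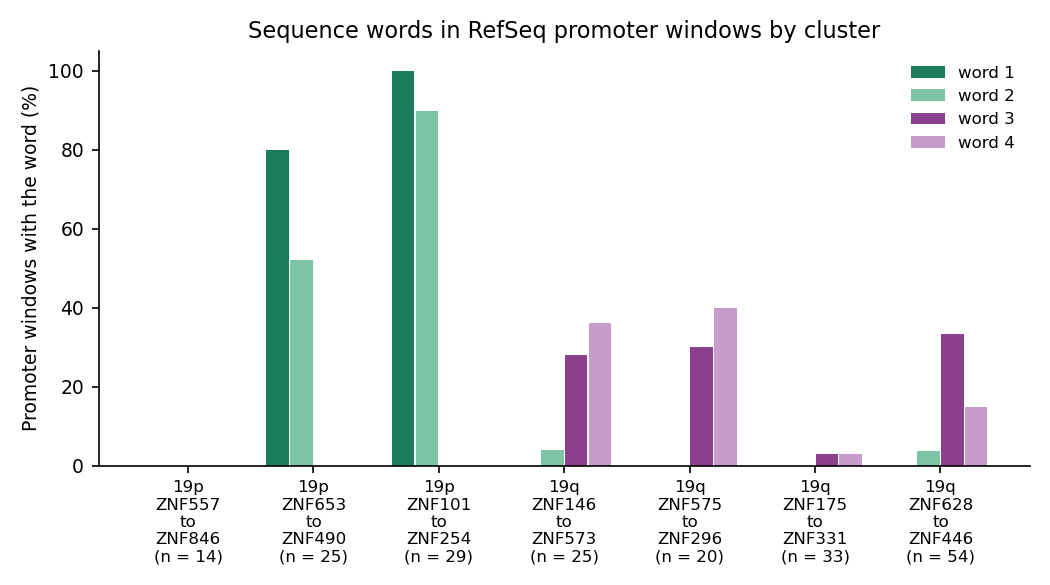
Share of RefSeq promoter windows holding each of the 4 words (vertical axis, percent) in the 7 clusters with at least 10 ZNF genes, named by arm and by first and last gene, with the number of windows in brackets. Word 1 is in all 29 windows of the 19p cluster from ZNF101 and in 20 of 25 of that from ZNF653, word 2 is in 26 and 13, words 3 and 4 appear only on 19q, and the clusters from ZNF557 and from ZNF175 hold almost none.

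Promoter peaks made up most of the peaks of these genes, more so than for other genes. HOMER placed 57 of 73 common peaks in promoters (78.1%, 66.9 to 86.9), 12 of 20 control-specific peaks (60%, 36.1 to 80.9) and 46 of 88 depleted-specific peaks (52.3%, 41.4 to 63.0). The interval of the common list lies above that of the depleted-specific list, and the control-specific interval overlaps both. Among the other protein-coding genes of chromosome 19 the shares were 56.6%, 21.3% and 35.4%. For ZNF genes of other chromosomes they were 44.4%, 11.8% and 23%, and over all protein-coding genes 28.4%, 6.55% and 13.2%. The chromosome 19 ZNF share was the highest of these groups in each list, and its intervals did not overlap theirs.

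**Figure D2:**
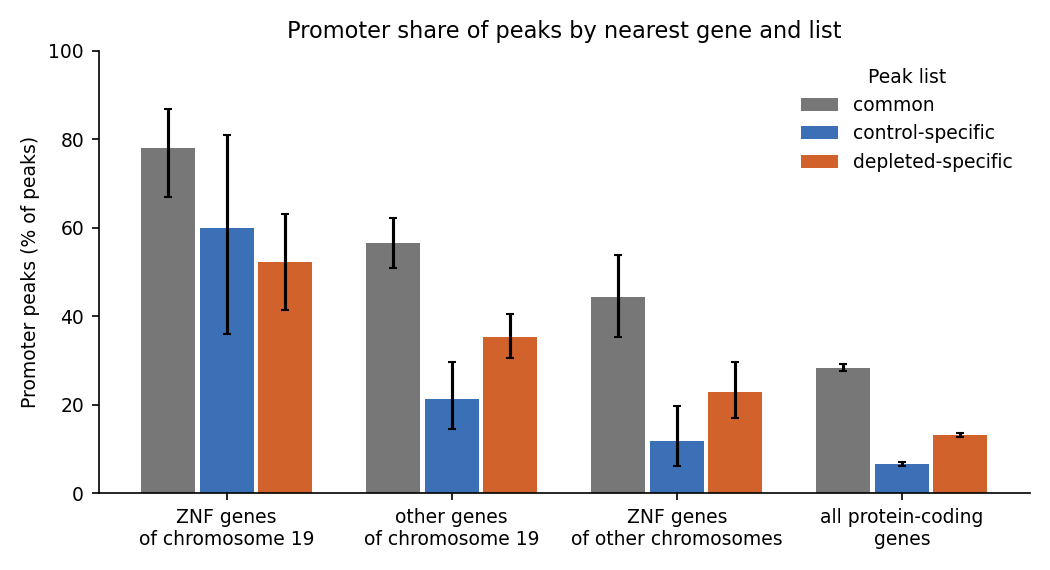
Promoter peaks as a percent of all peaks (vertical axis) for 4 groups of genes and the 3 peak lists; whiskers are 95% Clopper-Pearson intervals. ZNF genes of chromosome 19 have the highest share in each list, from 52.3% to 78.1%.

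Counted by gene, 108 of the 249 protein-coding ZNF genes of chromosome 19 in GENCODE had a promoter peak in at least 1 list (43.4%, 37.1 to 49.8), against 28.2% of all 20020 protein-coding genes. A common promoter peak was present at 55 genes (22.1%, background 14.6%), a control-specific one at 12 (4.82%, background 3.68%) and a depleted-specific one at 43 (17.3%, background 11.8%). The intervals were 17.1 to 27.8%, 2.51 to 8.27% and 12.8 to 22.5%, so the control-specific share could not be told apart from its background. ZNF genes of other chromosomes came close, at 37.6% (31.8 to 43.7) in any list, while the other genes of chromosome 19 were at 26.2%. A further 27 ZNF genes were named only by peaks outside the promoter, and 114 were named by no peak. Each peak names 1 nearest gene, so a gene that shares its start region with a neighbour can be among these 114. An example is ZNF571, whose start lies inside the common promoter peak of ZNF540. With GENCODE start windows, 131 of the 249 genes had a peak in a window. The share of all genes with such windows was not computed, so this count has no background and is not comparable with the 28.2%. The peaks named 139 genes in all, of which 4 symbols (ZNF56, ZNF765-ZNF761, ZNF781 and ZNF788P) are not protein-coding ZNF symbols of that annotation and stand outside these counts.

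More ZNF promoter peaks were listed only for the depleted library than only for the control library. A promoter absent from a list was not shown to be closed, since the signal of the other library at these sites was not examined. The ratio was 46 to 12 promoter peaks, or 3.83 (2.00 to 7.95). Over all protein-coding genes the same ratio was 3.24 (2.99 to 3.52), within the ZNF interval, and over the other genes of chromosome 19 it was 5.27. The excess at ZNF promoters was therefore not distinguishable from that at promoters in general. Outside promoters the ZNF genes had 42 depleted-specific and 8 control-specific peaks, a ratio of 5.25 (2.43 to 12.9), against 1.49 (1.46 to 1.53) for all protein-coding genes and 2.60 (2.05 to 3.33) for the other genes of chromosome 19. This ratio was above the genome-wide value, whereas its interval overlapped that of its own chromosome.

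Peak heights are given as tags, obtained by dividing the deposited score by the score of 1 tag, since the common and control-specific lists are on the control scale and the depleted-specific list on its own. A tag was worth 0.407 of score in the first case and 0.507 in the second, which corresponds to 24.6 and 19.7 M tags if HOMER's default scale was used. Common ZNF promoter peaks held 11 to 24 tags (median 16), control-specific ones 12 to 18 (median 15) and depleted-specific ones 9 to 22 (median 15.5). On the deposited score, scaled to library depth, the medians were 6.51, 6.10 and 7.855. A peak of 16 tags has a Poisson interval of 9.15 to 26, which takes in the whole range of the common peaks, so the order of single promoters by height is not resolved. None of the 57 common ZNF promoter peaks reached 25 tags, whereas 342 of 3070 common promoter peaks of other genes did (11.1%). The cut of 25 tags lies just above the highest of these ZNF peaks (24), so their absence above it follows from the cut and is only a description. The median of the other common promoter peaks was 17 tags.

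**Figure D3:**
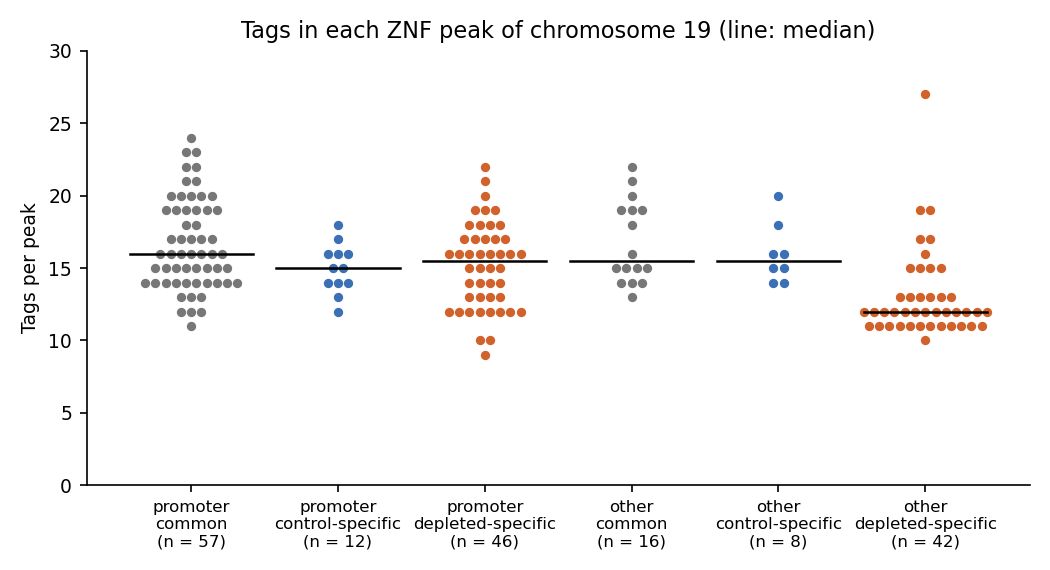
Tags in each of the 181 peaks (vertical axis) by class and list, with 1 point per peak and a line at the median. Promoter peaks range from 9 to 24 tags in the 3 lists, and the single highest point, at 27 tags, is the depleted-specific intron peak of ZNF44.

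Control-specific promoter peaks were found at 12 genes. On 19p they were ZNF266 (13 tags), ZNF439 (16), ZNF709 (15), ZNF66 (16), ZNF430 (14) and ZNF429 (17). On 19q they were ZNF529 (16), ZNF790 (14), ZNF570 (12), ZNF180 (18), ZNF264 (15) and ZNF551 (14). For 11 of them the nearest peak called in the depleted library, whether specific or common, was 10274 to 108550 bp away. The exception was ZNF790, whose control-specific peak, centred at -39 bp from a start, had a depleted-specific neighbour of 10 tags centred 310 bp from it and 171 bp inside the gene. ZNF790 also had a depleted-specific peak of 13 tags at its other annotated start, 11914 bp away. It was the only gene with promoter peaks in both specific lists.

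The highest depleted-specific promoter peaks belonged to ZNF433 on 19p (22 tags, score 11.2) and to ZNF460 (21 tags, score 10.6) and ZNF766 (20 tags, score 10.1) on 19q. ZNF675, ZNF773 and ZNF324 followed at 19 tags, and ZNF420, ZNF283, ZNF112 and ZNF808 at 18 tags. ZNF460 had a common peak, assigned to the start of its antisense gene ZNF460-AS1, centred 551 bp away. For the other 9 genes the nearest peak called in the control library lay 9050 to 291757 bp away. The lowest depleted-specific promoter peaks were ZNF780A with 9 tags and ZNF614 and 1 of the ZNF790 peaks with 10 tags.

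The common promoter peaks were led by ZNF227 on 19q with 24 tags. ZNF563 (19p) and ZNF576 (19q) had 23 tags, ZNF56 and ZNF350 22, and ZNF493 and ZNF444 21. ZNF226, ZNF443, ZNF547, ZNF548 and ZNF799 shared 20 tags. These values are from the control scale, and the heights of the same peaks in the depleted library were not analysed here. ZNF491 was the only gene with a common and a depleted-specific promoter peak, of 14 tags centred 50 bp inside the gene and of 12 tags centred at -942 bp. ZNF20 had 2 promoter peaks, of 15 and 13 tags, both depleted-specific and centred at -49 and -873 bp.

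Most promoter peaks sat just upstream of the start. The median centre was at -87 bp from the start, with quartiles at -147.5 and -25.5 bp, 99 of 115 centres were upstream, and 99 (86.1%) were within 200 bp. By list the medians were -102 bp for common, -43 bp for control-specific and -70 bp for depleted-specific peaks. The 3 ranges overlapped, and the control-specific median rests on 12 peaks. For promoter peaks of other genes the medians were -92, -104 and -85 bp in the same order. The promoter class reached farther upstream of a start than into the gene. A peak centred at -942 bp was in it, while one centred 223 bp inside ZNF573 was an intron peak. An upstream majority is therefore partly set by the class and is not particular to ZNF genes. The depleted-specific peaks of ZNF491 and ZNF20 were the most distant.

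**Figure D4:**
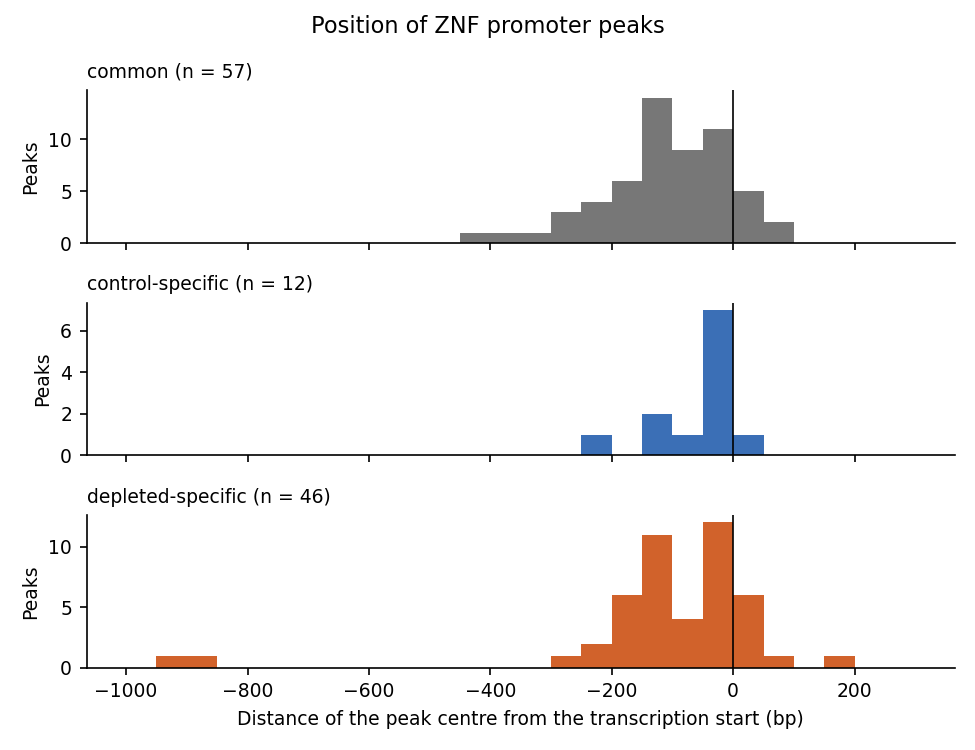
Number of ZNF promoter peaks (vertical axes) by distance of the peak centre from the transcription start in bins of 50 bp (horizontal axis, negative upstream), 1 panel for each list. In each list most peaks lie within 200 bp of the start and upstream of it, and the 2 farthest upstream are depleted-specific.

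No difference between the arms was detectable in how often ZNF genes had a promoter peak. A promoter peak was present at 38 of 85 genes of 19p (44.7%) and 70 of 164 genes of 19q (42.7%). The difference of 19q minus 19p was -2.02 percentage points (-15.6 to 11.4). It changed sign, to 4.86 points (-8.77 to 18.4), when promoters were taken as windows around GENCODE starts. For depleted-specific promoter peaks 19p had 13 genes and 19q 30, a difference of 3.0 points (-7.97 to 12.7). Common promoter peaks were at 20 and 35 genes and control-specific ones at 6 and 6. Of all ZNF peaks, 60.9% on 19p and 65.2% on 19q were promoter peaks.

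The share of genes with a promoter peak was also described by cluster. Genes whose starts were no more than 1 Mb apart were joined, which gave 16 clusters, and 7 of them with at least 10 genes held 228 of the 249 genes. The cluster at 11.5 to 12.6 Mb on 19p, from ZNF653 to ZNF490, had the highest share of these 7, with a promoter peak at 19 of 26 genes (73.1%, 52.2 to 88.4). Of its genes, 10 had a common, 2 a control-specific and 8 a depleted-specific promoter peak, ZNF491 being counted under both. It includes ZNF433, ZNF563, ZNF44 and ZNF20. A lower share was seen in the 19q cluster at 51.6 to 53.5 Mb, from ZNF175 to ZNF331, with promoter peaks at 9 of 40 genes (22.5%, 10.8 to 38.5), of which 4 were common, none control-specific and 5 depleted-specific. These intervals do not overlap for clusters joined at 1 Mb. However, both clusters were picked from the 7 after their shares were seen, and the intervals are not adjusted for that. Small groups also spread more than large ones, so whether clusters differ more than the arms was not tested. The lowest share of the 7 was in the 19p cluster at 7.07 to 9.79 Mb, with 3 of 16 (18.8%, 4.05 to 45.6), namely ZNF266 with a control-specific and ZNF317 and ZNF562 with a depleted-specific peak.

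The other large clusters lay between. From ZNF101 to ZNF254 (19.7 to 24 Mb) 13 of 37 genes had a promoter peak (35.1%), among them ZNF429, ZNF430, ZNF66 and ZNF675. From ZNF146 to ZNF573 (36.2 to 37.8 Mb) it was 13 of 26 (50%), with control-specific peaks at ZNF529, ZNF570 and ZNF790. From ZNF575 to ZNF296 (43.5 to 45.1 Mb) it was 14 of 24 (58.3%), including ZNF225, ZNF227, ZNF112 and ZNF180. The largest cluster, from ZNF628 to ZNF446 (55.5 to 58.5 Mb), had 28 of 59 (47.5%), of which 16 were common, 2 control-specific and 10 depleted-specific. The intervals of these 4 clusters overlapped one another.

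**Figure D5:**
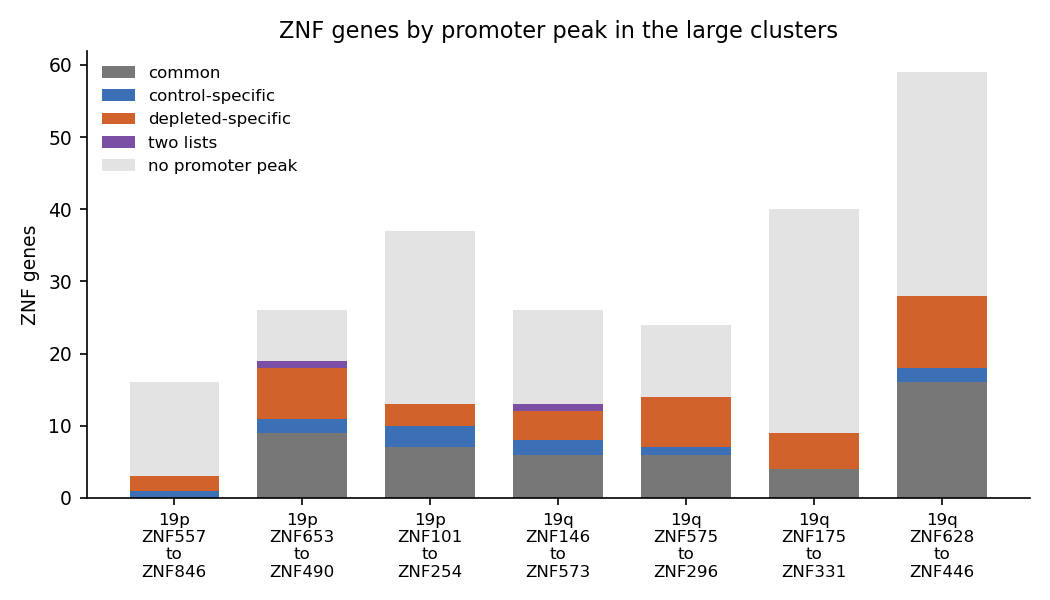
Number of ZNF genes (vertical axis) in the 7 large clusters, coloured by the list of their promoter peak, with genes that have none in pale grey. The 19p cluster from ZNF653 to ZNF490 has the fewest genes without a promoter peak relative to its size, and the 19q cluster from ZNF175 to ZNF331 has 31 of 40 without one.

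The words of the promoters and the presence of a peak went only partly together. On 19p, word 1 was in 31 of 37 windows of genes with a promoter peak (83.8%) and in 22 of 37 without one (59.5%). Yet in the cluster from ZNF101 to ZNF254, all 29 genes with a window held word 1 and 12 of these 29 had a promoter peak. On 19q, word 3 was in 25.8% of 62 windows with a peak and 22.0% of 82 without, and word 4 in 29.0% and 15.9%. The CCAAT box (CCAAT) was more frequent in windows with a peak on both arms, at 91.9% against 73.0% on 19p and 50% against 31.7% on 19q. ETS words (CCGGAAG) went the other way on 19p, at 21.6% against 54.1%, with 46.8% against 51.2% on 19q. Words 1 to 4 were picked for their excess in these same promoter peaks. That choice favours a higher share in windows with a peak. It also bears on CCAAT, which word 1 contains. All these are shares of the reference sequence and are given as a description. They mix clusters that differed in words and in peaks. On 19p, ETS words were in 2 of 25 windows from ZNF653 to ZNF490, where 19 had a promoter peak. From ZNF101 to ZNF254 they were in 21 of 29, where 12 had one. CCAAT was in 23 of 25 and 29 of 29 of these windows. It was in 4 of 14 from ZNF557 to ZNF846, where 3 had a promoter peak. Whether the contrasts hold within a cluster was not tested.

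Other base composition and known motif words were compared between the peak lists. Median GC content of ZNF promoter peaks was 57.7% in common, 60.7% in control-specific and 59.3% in depleted-specific peaks, against 62.3%, 58.2% and 64.7% for promoter peaks of other genes. The GC box was found in 57.9%, 75% and 67.4% of ZNF promoter peaks (other genes 66.4%, 46.8% and 66.6%). CCAAT was found in 70.2%, 58.3% and 58.7% (other genes 50.4%, 35.2% and 40.7%). With the arms pooled, the ZNF share was the higher one in each list. The control-specific ZNF interval of 27.7 to 84.8% includes the share of the other genes. The interval was 56.6 to 81.6% in common and 43.2 to 73.0% in depleted-specific peaks, so a difference between these lists was not detectable. Over all lists CCAAT was in 85.7% of 19p and 52.1% of 19q ZNF promoter peaks. TCCAATCA, which contains CCAAT and was picked from these peaks, was in 76.2% on 19p and in none on 19q. The 19q interval for CCAAT, 40.0 to 63.9%, includes the other-gene shares of 50.4% and 40.7% but not 35.2%. The CCAAT shares by list were not split by arm, so an excess on 19q was not shown. ETS words were in 29.8%, 33.3% and 32.6% of ZNF promoter peaks (other genes 22.0%, 14.9% and 17.5%). KLF words (CCACACCC, CCACGCCC, CCCCACCC or CCCCGCCC, the latter overlapping some GC boxes) were in 21.1% of common (11.4 to 33.9), 50% of control-specific (21.1 to 78.9) and 41.3% of depleted-specific peaks (27.0 to 56.8). For other genes the KLF shares were 43.4%, 35.1% and 47.7%, so that of common ZNF promoter peaks was below that of other genes, whereas the control-specific and depleted-specific ZNF intervals include the values of other genes. The CRE word TGACGTCA, the NRF1 word GCGCATGCG and the E box CACGTG were rare, in at most 3 peaks of any list.

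The known motifs were also compared between the arms. The GC box was in 81.0% of 19p and 53.4% of 19q promoter peaks, with intervals of 65.9 to 91.4% and 41.4 to 65.2%. CCAAT was in 85.7% (71.5 to 94.6) and 52.1% (40.0 to 63.9), so neither pair of intervals overlapped. KLF words were in 47.6% (32.0 to 63.6) and 23.3% (14.2 to 34.6), and ETS words in 16.7% (6.97 to 31.4) and 39.7% (28.5 to 51.9). The intervals of the arms overlapped for KLF and for ETS words. All these intervals treat related promoters as independent, and each arm mixes unlike clusters. In the promoter windows, CCAAT ranged from 28.6% to 100% over the large 19p clusters and from 20% to 61.1% over those of 19q. The GC box ranged from 64.3% to 96% and from 28% to 81.8%. The ratio of observed to expected CpG dinucleotides had a median of 0.545 on 19p and 0.807 on 19q at similar GC content (58.3% and 59.0%).

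The 66 peaks outside promoters were mostly intergenic (32) or intronic (23), and 42 of them were depleted-specific. The 4 peaks at transcription termination sites were all depleted-specific, a number too small to compare with 42 of 66, and the share over all genes is not given here. They lay at the ends of ZNF574 and ZNF577, of ZNF554 (peak assigned to ZNF555) and of ECSIT, not a ZNF gene (peak assigned to ZNF653). A total of 6 peaks lay in last exons, which in these genes usually carry the finger array, 4 of them depleted-specific and 2 control-specific. Common and control-specific peaks outside promoters had a median of 15.5 tags each and depleted-specific ones 12. On the deposited score, which is scaled to the depth of each library, the medians were close, at 6.305, 6.305 and 6.08. The depleted-specific intron 1 peak of ZNF44, centred 649 bp inside the gene, was the highest of all 181 peaks, with 27 tags and a score of 13.7. The common promoter peak of ZNF44 lay 919 bp from it and had 14 tags.

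ZNF507, ZNF331 and ZNF563 had the most peaks outside promoters. ZNF507, which stands alone at 32.3 Mb on 19q, had 5, of which 2 were common (22 and 14 tags), 2 control-specific (20 and 16 tags) and 1 depleted-specific (11 tags), and no promoter peak. Its depleted-specific peak was centred 818 bp from the common one of 22 tags in intron 5. ZNF331 had 4, of which 1 was common (19 tags) and 3 were depleted-specific (19, 13 and 12 tags), and likewise no promoter peak. ZNF563 had 4 next to its common promoter peak of 23 tags, namely 2 common ones (15 and 14 tags) and 2 depleted-specific ones (16 and 12 tags). ZNF507 was the only gene with more than 1 control-specific peak.

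The encoded proteins were compared through features computed from the GENCODE coding sequences. The 249 proteins had a median of 12 C2H2 fingers (0 to 36), and 209 (83.9%) matched a KRAB pattern, which can miss divergent boxes. Of the genes with a match, 96 had a promoter peak (45.9%, 39.0 to 52.9), against 12 of the 40 others (30%, 16.6 to 46.5). Depleted-specific promoter peaks were at 41 of 209 (19.6%, 14.5 to 25.7) and 2 of 40 (5.0%, 0.611 to 16.9), and the intervals overlapped. Common promoter peaks were at 21.5% and 25%. Median finger numbers were 12.5 for genes with a common promoter peak, 13 with a depleted-specific one, 12 with a control-specific one and 12 with none. ZNF433 had 18 fingers, ZNF227 18, ZNF91 31 and ZNF576, without the KRAB pattern, 4.

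Reads from near-identical duplicates can be placed at either copy. Of the 115 promoter peaks, 58 (50.4%) had a second match of at least 200 bp on chromosome 19. Only that of ZNF417, at 97.2% identity, was at or above 95%. The shares were 50.9% for common, 33.3% for control-specific and 54.3% for depleted-specific promoter peaks. Only called peaks were searched, so these values do not cover promoters without a peak. The part of read placement in these results was not tested.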

How the data were processed

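FAIRE DNA of 1 control and 1 NR2E3-depleted HepG2 library was sequenced. Per the labels, the authors used bcl2fastq 2.17, Trimmomatic 0.39, Bowtie2 2.4.5 and SAMtools 1.14 with hg38, and HOMER for peaks and annotation. The rule separating common from specific peaks, and any input correction, are not given in the sources used here. The deposited score is the authors' scaled tag number per peak of 300 bp. Below 10, every score was a whole multiple of a fixed step in its list (within rounding), and tags are score over step.

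Members and lists were chosen with earlier results of these data known. Named genes are all with a control-specific promoter peak, the 10 highest depleted-specific and common ones (with ties), those in over 1 list and the 3 with most other peaks; ZNF44, ZNF91 and the genes given as cluster examples were chosen after their values were seen. The 8-letter words and the KRAB pattern were set on these data. Arms were split at 26 Mb. Promoter windows are RefSeq (GRCh38.p14; 218 of 249 genes matched). Protein features came from GENCODE 44 coding sequences, second matches from BLAST+ 2.17.0. Shares have Clopper-Pearson and ratios exact binomial 95% intervals. Those of differences combine Clopper-Pearson limits by Newcombe's formula. All these intervals treat peaks as independent. With 1 library per group no p-value was computed. The calculations were tested on simulated data (Python 3.11.15, scipy 1.17.1). Alternatives are listed in the closing section.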

Additional observations from a re-analysis of the deposited data

How the results depend on the processing

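Promoters were redefined (centre within 500 or 1000 bp of the start, or GENCODE windows of 1000 bp upstream to 100 bp downstream), a stricter score of 6.08 was required, specific peaks within 1000 bp of a peak of the other library were taken as common, motifs were sought only within 100 bp of the centre, and clusters were joined at 500 kb or 2 Mb. Of 64 values recomputed, 61 stayed within the stated error or within 1.5 times the count, and 3 moved. At the stricter score, genes with a control-specific promoter peak fell from 12 to 7. Of the ZNF peaks, 13 of 20 control-specific and 72 of 88 depleted-specific ones reach it. The cut of 6.08 is the median score of the whole depleted-specific list, and that of the control-specific list is 5.69. Why the lists differ in score was not tested. The GC box share of common promoter peaks was 43.9% within 100 bp of the centre, a shorter window. Joining at 2 Mb gave 9 clusters. It merged the 19p clusters from ZNF557 and from ZNF653, which had the lowest and the highest share of the large clusters. The 19q clusters from ZNF175 and from ZNF628 merged as well. The contrasts between clusters therefore hold for joining at 1 Mb and not at 2 Mb. The ratio of depleted-specific to control-specific promoter peaks ranged from 3.67 to 6.14. The difference of 19q minus 19p ranged from -4.72 to 4.86 points in any list and from -3.62 to 1.51 for common peaks, with intervals that include 0. No paired analysis was possible because the result comes from no test, with a single library on each side. Single peaks rest on 9 to 27 tags, which limits the precision of their heights.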
